A study of Homo sapiens with 30 samples.

Results

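Messenger RNA of 10 members of the BCL2 family, the regulators of mitochondrial apoptosis, was followed across radiation dose in a pair of human lymphoblastoid cell lines. The 6 pro-death members were BAX, BAK1, BID, BAD, BIK and BCL2L11, and the 4 pro-survival members were BCL2, BCL2L1, MCL1 and BCL2A1. A probe set, which is the group of short probes that reports a transcript on the array, was taken for a gene when the platform annotation gave that gene's symbol alone. The 10 genes are among 11963 that the annotation names in this way. This rule found 23 of the 22283 probe sets on the array, 10 of them for pro-death and 13 for pro-survival members. Of these, 17 were bright enough to be tested, 7 pro-death and 10 pro-survival, and they covered 9 of the 10 genes because neither probe set of BAD passed.

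GM15036 and GM15510 are established lymphoblastoid lines, that is, B cells that Epstein-Barr virus has made to grow without limit, and both were kept as suspension cultures in MEM with serum. Cells received 1, 2.5, 5, 7.5 or 10 cGy from a caesium-137 source, and each line and dose was measured on 3 Affymetrix arrays, which makes 10 groups and 30 arrays. The design text of the series writes Gy where the sample labels write cGy, and the labels' unit is used here. Unirradiated cells were not analysed here, and the lowest dose, 1 cGy, served as the reference within each line. The sources used here give no time between irradiation and RNA extraction. A change shared by all 5 doses cannot be seen in such a design. The labels do not say whether a group's 3 arrays are separate cultures, so p-values measure the spread between arrays, which may be technical. Each line stands for itself alone, and anything handled separately for the lines cannot be told apart from the line.

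The BCL2 family decides whether the outer mitochondrial membrane stays intact. BAX and BAK1 are the effectors that assemble into pores in that membrane and release cytochrome c, while BCL2, BCL2L1 (Bcl-xL), MCL1 and BCL2A1 (also named BFL-1 or A1) hold them in check. BH3-only proteins such as BID, BAD, BIK and BCL2L11 (BIM) either neutralise the pro-survival proteins or engage the effectors directly. In irradiated cells p53 is known to switch on transcription of BAX and of several BH3-only genes, and in B cells transformed by Epstein-Barr virus the viral protein LMP1 is known to raise BCL2A1 through NF-kB.

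Values are array signals brought to a common brightness, called scaled signals, in arbitrary units, and they compare arrays for a given probe set and not probe sets with each other. Differences and tests are on the log2(scaled signal + 4) scale, which understates changes of dim probe sets, and each adjusted p is from limma with Benjamini-Hochberg adjustment over all 13331 tested probe sets, with a threshold of 0.05. Of B cell markers, 9 genes had a tested probe set. Of the T and NK cell, monocyte, erythroid and fibroblast markers, 1 of 9, 1 of 7, 1 of 4 and 2 of 5 genes were tested. Signals of different probe sets are not compared, so these counts describe only which markers passed the filter on dim probe sets. Before scaling, the mean brightness of the groups ran from 18.7 in GM15510 at 2.5 cGy to 89.1 in GM15510 at 10 cGy, and in GM15036 it ran from 69.6 at 1 cGy to 22.1 at 10 cGy. Brightness therefore moved with dose, and it was entered as a covariate in an alternative fit. The log2 ratio of 3′ to 5′ signal of the ACTB control probe sets, entered in another fit, also differed between doses. Its mean in GM15036 was 4.48 at 1 cGy and 5.03 to 5.51 at the higher doses. In GM15510 it was 3.75 at 1 cGy and 3.78 to 5.16 at the higher doses, with the highest at 10 cGy. The GM15510 5 cGy arrays read 5.52, 5.48 and 3.43 for this ratio.

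Dose calls were few and differed between the lines. Of 136 tests of a member probe set at a dose against 1 cGy, 12 passed, against 4.63% of such tests over all probe sets. In GM15036, 0 of 17 passed at 2.5 cGy (background 0.548%, with 1 member at an unadjusted p under 0.05), 0 at 5 cGy (0.143%, 3 unadjusted), 1 at 7.5 cGy (3.22%) and 3 at 10 cGy (11.7%). In GM15510, 3 of 17 passed at 2.5 cGy (9.49%), 2 at 5 cGy (4.19%), 0 at 7.5 cGy (1.79%, 3 unadjusted) and 3 at 10 cGy (5.91%). Of all tested probe sets, 9.47% and 7.97% had an unadjusted limma p under 0.05 in GM15036 at 2.5 and 5 cGy. In GM15510 at 7.5 cGy that share was 11.9%. The 4 comparisons of a line share its 1 cGy arrays. Over the members tested, the median log2 difference at 10 cGy was 0.049 in GM15036 and 0.15 in GM15510, beside 0.030 and -0.0049 over all tested probe sets.

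The F test over the 5 doses passed for 5 of 17 member probe sets in GM15036, where 16.2% of all tested probe sets passed, and for 6 of 17 in GM15510, where 21.0% passed. In GM15036 these 5 lay in 5 genes: BAX, BID, BIK, BCL2 and BCL2A1. In GM15510 the 6 lay in 2 genes, BAX with both of its probe sets and MCL1 with all 4 of its tested probe sets. BAX was the only member gene with a probe set past the threshold in both lines.

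BAX, the effector that moves from the cytosol to mitochondria when cells die, was highest at 10 cGy in GM15510 and had no such maximum in GM15036. In GM15510 the scaled signal of probe set 211833_s_at was 40.6, 36.8 and 43.3 at 1 cGy, 55.3, 50.0 and 40.01 at 2.5 cGy, 44.7, 55.0 and 75.8 at 5 cGy, 45.8, 50.1 and 50.8 at 7.5 cGy, and 99.9, 107 and 94.5 at 10 cGy. All 3 arrays at 10 cGy lay above the other 12 arrays of the line, and the 1 cGy arrays overlapped with those at 2.5 cGy. The rise from 1 to 10 cGy was 1.24 on the log2 scale (SE 0.167, 95% interval 0.90 to 1.58), a 2.36-fold change on that scale, with a limma adjusted p of 6.44e-06. The other BAX probe set, 208478_s_at, read 19.7, 16.8 and 13.2 at 1 cGy, 29.8, 31.0 and 38.4 at 2.5 cGy, 23.1, 30.1 and 21.2 at 5 cGy, 29.7, 13.5 and 27.8 at 7.5 cGy, and 51.8, 56.0 and 40.3 at 10 cGy in the same line. Its 10 cGy arrays again lay above all others of the line, and the rise of 1.38 (SE 0.223, 2.60-fold) had an adjusted p of 1.00e-04.

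At 2.5 cGy the same probe set, BAX 208478_s_at, was 0.86 higher than at 1 cGy (SE 0.223, adjusted p = 0.0117), whereas 211833_s_at did not pass the threshold at that dose. The 10 cGy difference of both BAX probe sets passed in 16 of 16 alternative settings, with values from 1.00 to 1.53, and with each of the 30 arrays left out. Brightness at 10 cGy in GM15510 was 89.1 against 69.4 at 1 cGy, and with brightness as a covariate the differences were 1.39 for 208478_s_at and 1.12 for 211833_s_at. The 2.5 cGy call of 208478_s_at was lost in 5 of 16 alternatives, brightness among them, and without GM15510 1 cGy replicate 3 or 2.5 cGy replicate 3 (adjusted p up to 0.0752).

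A straight line through the 5 dose means of GM15510 rose by 0.11 log2 per cGy for BAX 211833_s_at (adjusted p = 4.58e-05) and by 0.095 for 208478_s_at (0.00621). Without the 10 cGy arrays both slopes lost the threshold, with 0.042 (adjusted p = 0.409) and 0.022 (0.841), so the called slopes rested on the highest dose. The 208478_s_at slope of BAX was also lost without the 1 cGy arrays and with brightness as a covariate.

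BAX in GM15036 took another course. Probe set 208478_s_at read 72.5, 72.0 and 101 at 1 cGy, 59.4, 76.2 and 67.5 at 2.5 cGy, 72.0, 79.1 and 51.3 at 5 cGy, 110, 128 and 138 at 7.5 cGy, and 74.9, 52.8 and 80.4 at 10 cGy. The 7.5 cGy arrays were the highest 3 of the line, and the F test over doses had an adjusted p of 0.0166. Against 1 cGy alone the 7.5 cGy difference of 0.60 (SE 0.223) did not pass (adjusted p = 0.152), and the F test was lost without GM15036 7.5 cGy replicate b or c (adjusted p up to 0.112). BAX 211833_s_at did not pass the F test in GM15036 (adjusted p = 0.350), and its 10 cGy value differed from 1 cGy by 0.05 (95% interval -0.29 to 0.39).

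**Figure D1:**
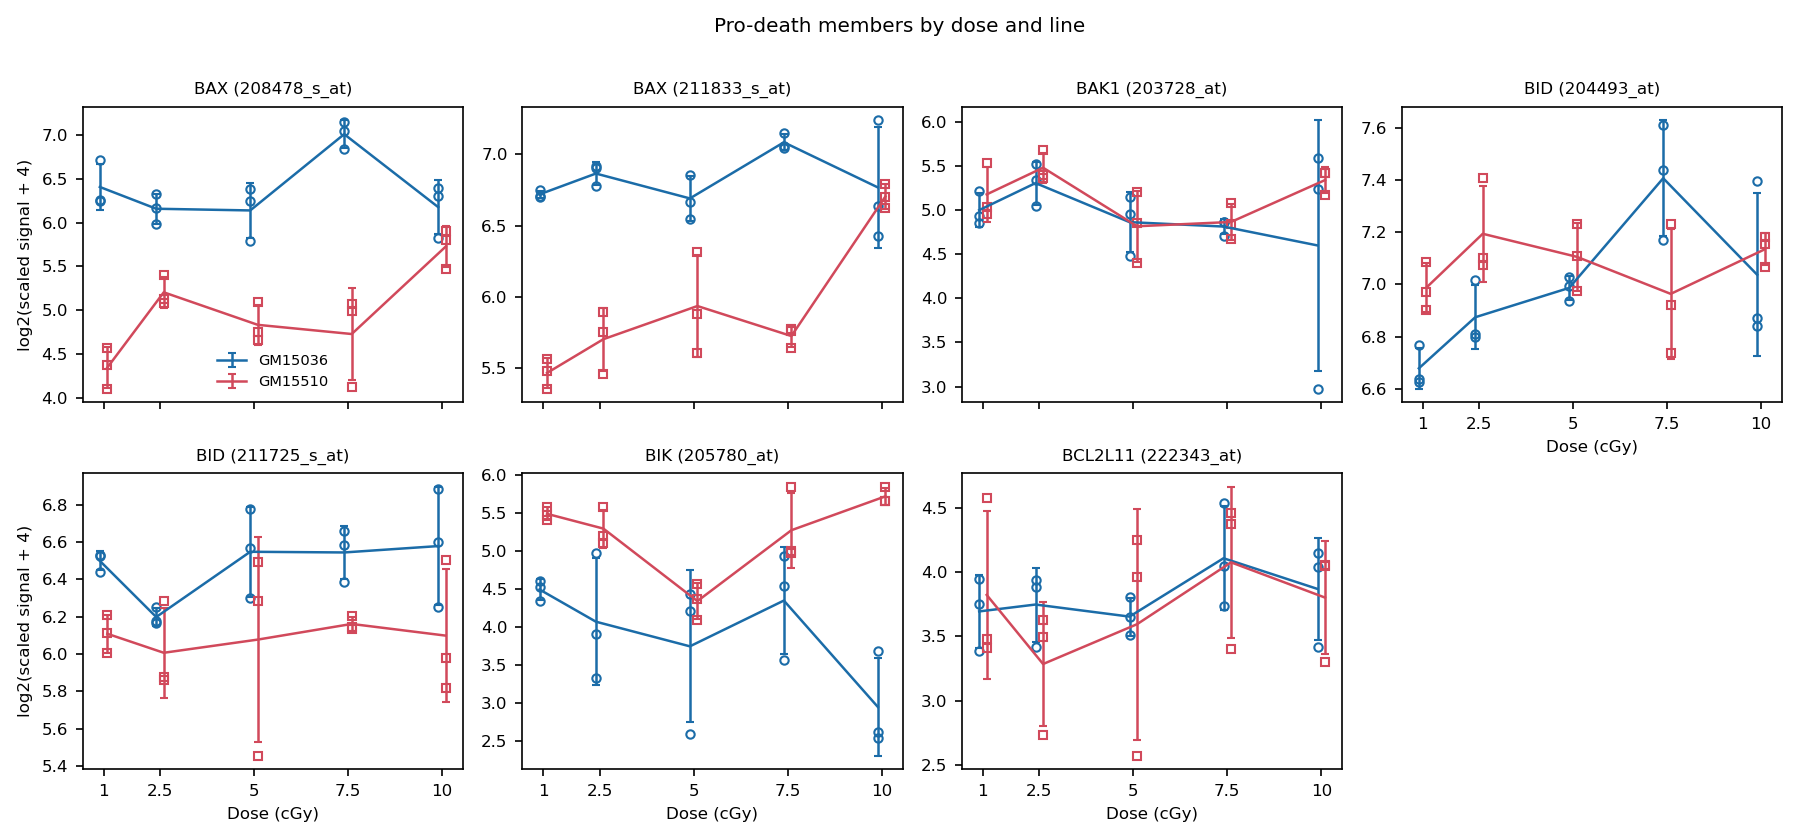
Log2(scaled signal + 4) of pro-death members (vertical axis) against dose in cGy (horizontal axis), with a point for each array, lines through group means and bars of 1 SD (n = 3), GM15036 as circles and GM15510 as squares. The GM15510 arrays of both BAX probe sets sit highest at 10 cGy, and the GM15036 mean of BID 204493_at is highest at 7.5 cGy.

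The sequence just before the start of BAX is shown because both of its probe sets moved and its promoter carries a repeated motif. It is from RefSeq's table for GRCh38.p14, at chr19:48954625-48954874 on the plus strand, directly 5′ of the annotated start. Capitals mark CACGTG, the E-box that reads the same on both strands.
BAX: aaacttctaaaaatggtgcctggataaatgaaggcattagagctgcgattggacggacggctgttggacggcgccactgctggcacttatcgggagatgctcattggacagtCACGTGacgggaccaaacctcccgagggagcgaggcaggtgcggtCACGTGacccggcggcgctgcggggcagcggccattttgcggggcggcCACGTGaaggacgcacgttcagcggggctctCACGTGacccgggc
There were 4 matches, from 138 to 14 bases before the start, and the window was 62.8% G and C. Of 35116 promoters of this length in the table, 6.34% held at least 1 CACGTG and 0.0142%, 5 promoters, held 4 or more. The motif and the cut-off of 4 were taken from the BAX sequence itself, so these shares only describe it. A match describes these letters and not a site in use, and p53 binding was not looked for.

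BAK1, the effector that resides in the mitochondrial membrane, did not pass any test. Its scaled signal ran from 3.85 to 44.2 in GM15036 and from 17.1 to 47.3 in GM15510, with medians of 27.1 and 32.1. The lowest value came from GM15036 10 cGy replicate c, whose companions read 44.2 and 33.7. At 10 against 1 cGy the log2 difference was -0.40 in GM15036 (95% interval -1.15 to 0.35) and 0.16 in GM15510 (-0.59 to 0.92).

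BID, the BH3-only protein that caspase-8 cleaves to carry the death receptor signal to mitochondria, was higher at 7.5 cGy in GM15036. Probe set 204493_at read 105, 94.8 and 95.7 at 1 cGy, 125, 108 and 107 at 2.5 cGy, 119, 124 and 127 at 5 cGy, 140, 192 and 169 at 7.5 cGy, and 113, 165 and 111 at 10 cGy. Every array from 2.5 cGy upwards lay above the 3 arrays at 1 cGy. The 7.5 cGy rise was 0.73 (SE 0.140, 1.66-fold, adjusted p = 0.00205), and the values at 2.5, 5 and 10 cGy were 0.20, 0.31 and 0.36, with no call. Its slope in GM15036 was 0.053 log2 per cGy (adjusted p = 0.00736).

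The 7.5 cGy call of BID held with each array left out and was lost in 2 of 16 alternatives, under median centring (0.45, adjusted p = 0.165) and with brightness as a covariate (0.65, adjusted p = 0.0538), and the slope held in 12 of 18 alternatives, not with brightness as a covariate, and was lost without GM15036 10 cGy replicate b (adjusted p = 0.0815). Mean brightness was 32.4 at 7.5 cGy and 69.6 at 1 cGy in that line. In GM15510 the scaled signal of BID 204493_at ran from 103 to 166 with a median of 132, and no dose passed. The other BID probe set, 211725_s_at, passed at no dose in either line, and across the 30 arrays the probe sets correlated at -0.041 (Pearson, log2 values).

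BIK, a BH3-only protein of the endoplasmic reticulum, was lower at 10 cGy in GM15036. Its single probe set, 205780_at, read 20.5, 19.1 and 16.4 at 1 cGy, 11.1, 6.02 and 27.5 at 2.5 cGy, 2.06, 17.7 and 14.5 at 5 cGy, 19.3, 7.88 and 26.7 at 7.5 cGy, and 2.17, 8.89 and 1.79 at 10 cGy. The 10 cGy arrays lay below all 3 at 1 cGy, although replicates at 5 cGy spread as far. The fall was -1.55 on the log2 scale (SE 0.412, adjusted p = 0.0105). The log2 mean at 10 cGy was 2.95, under the 3.64 that a probe set's mean over all arrays had to exceed to be tested, so the size of the fall rests on signals too dim to be exact. It was lost with brightness as a covariate (-1.89, adjusted p = 0.0901), with the GAPDH ratio as a covariate, with each line fitted alone, and without GM15036 10 cGy replicate a or c (adjusted p up to 0.0547). The F test over doses of BIK in GM15036 (adjusted p = 0.0383) held in 7 of 15 alternatives and was lost without any 1 cGy array of that line, 7.5 cGy replicate a or c, or 10 cGy replicate a or c (up to 0.172). Its slope of -0.12 log2 per cGy (adjusted p = 0.0389) held in 7 of 17 alternatives and in 23 of 30 runs with an array left out.

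In GM15510 BIK read 38.7, 40.8 and 43.9 at 1 cGy, 30.5, 43.9 and 32.9 at 2.5 cGy, 16.7, 19.8 and 13.0 at 5 cGy, 27.5, 28.2 and 53.7 at 7.5 cGy, and 53.7, 46.5 and 46.7 at 10 cGy. The 5 cGy arrays were the lowest 3 of the line and did not overlap with 1 cGy, but the difference of -1.15 (SE 0.412) did not pass (adjusted p = 0.119).

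BCL2L11, the BH3-only protein BIM that binds all pro-survival members, was dim. Its tested probe set, 222343_at, ran from 6.44 to 19.3 in GM15036 and from 1.96 to 19.9 in GM15510, and no dose passed in either line. Its other probe set, 208536_s_at, was not tested and ran from 0.209 to 8.38. BAD, the BH3-only protein that 14-3-3 proteins hold in the cytosol when it is phosphorylated, was not tested either, with scaled signals from 0.279 to 13.4 for 1861_at and from 1.08 to 33.2 for 209364_at. Without the filter on dim probe sets neither BAD probe set passed at any dose.

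MCL1, the short-lived pro-survival protein that B cells depend on, had 4 tested probe sets that did not move alike in GM15510. Probe set 214057_at read 85.0, 84.0 and 79.9 at 1 cGy, 64.3, 91.2 and 73.1 at 2.5 cGy, 81.9, 115 and 87.1 at 5 cGy, 85.9, 71.6 and 83.3 at 7.5 cGy, and 165, 214 and 233 at 10 cGy. The 3 arrays at 10 cGy stood above the other 12 of the line, whose doses overlapped. The rise over 1 cGy was 1.24 (SE 0.142, 95% interval 0.96 to 1.53, 2.37-fold, adjusted p = 4.23e-07), and it passed in 16 of 16 alternatives, from 1.14 to 1.30, and with each array left out. Its slope of 0.12 log2 per cGy (adjusted p = 2.20e-06) dropped to 0.0079 without the 10 cGy arrays (adjusted p = 0.919).

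A different shape came from MCL1 200798_x_at in GM15510, which read 280, 269 and 279 at 1 cGy, 164, 158 and 128 at 2.5 cGy, 155, 151 and 200 at 5 cGy, 186, 236 and 209 at 7.5 cGy, and 333, 268 and 280 at 10 cGy. The 1 and 10 cGy arrays overlapped, and all 9 arrays between lay below both. The fall at 2.5 cGy was -0.87 (SE 0.144, adjusted p = 1.41e-04) and at 5 cGy -0.71 (adjusted p = 0.00259). MCL1 214056_at also fell at 2.5 cGy, from 128, 136 and 129 to 92.2, 88.5 and 80.9, a difference of -0.57 (SE 0.133, adjusted p = 0.00500).

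The dimmest GM15510 groups were 2.5 and 5 cGy, with mean brightness of 18.7 and 39.0 against 69.4 at 1 cGy. With brightness as a covariate the 200798_x_at falls of MCL1 were -0.63 (adjusted p = 0.190) and -0.58 (0.0705), while the 214056_at fall was -0.84 (0.0269). The 5 dimmest arrays included GM15510 2.5 cGy replicates 2 and 3 and 5 cGy replicate 1. Without them only replicate 1 was left at 2.5 cGy, so that setting cannot decide the falls at that dose. The 5 cGy call of MCL1 200798_x_at passed in it.

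A further MCL1 probe set, 200797_s_at, moved the other way at 5 cGy in GM15510. It read 467, 669 and 512 at 1 cGy, 635, 795 and 592 at 2.5 cGy, 1037, 826 and 998 at 5 cGy, 742, 1039 and 751 at 7.5 cGy, and 727, 838 and 826 at 10 cGy. All arrays from 5 cGy upwards exceeded all 3 at 1 cGy. The 5 cGy rise was 0.80 (SE 0.178, 1.74-fold, adjusted p = 0.00577), and the differences of 0.62 and 0.55 at 7.5 and 10 cGy fell short (adjusted p = 0.0702 and 0.062). The 5 cGy call was lost under median centring (0.39, adjusted p = 0.211) and without GM15510 1 cGy replicate 1 (adjusted p = 0.0547). The slope of 0.058 log2 per cGy (adjusted p = 0.0456) held in 11 of 18 alternatives, not with brightness as a covariate, and in 13 of 30 runs with an array left out.

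In GM15036 none of the 4 tested MCL1 probe sets passed at any dose or in the F test. The 10 minus 1 cGy differences there were -0.24 for 200797_s_at, 0.02 for 200798_x_at, 0.15 for 214056_at and 0.11 for 214057_at, each with an SE between 0.133 and 0.178. Over the 30 arrays 200798_x_at and 214056_at correlated at 0.874, with 0.279 within GM15036 and 0.736 within GM15510, whereas 200797_s_at and 200798_x_at correlated at -0.282. Probe sets whose names end in _x_at can bind other transcripts, and those ending in _s_at can bind several related ones. The fifth MCL1 probe set, 200796_s_at, was too dim to test, with scaled signals from 0.189 to 9.51.

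**Figure D2:**
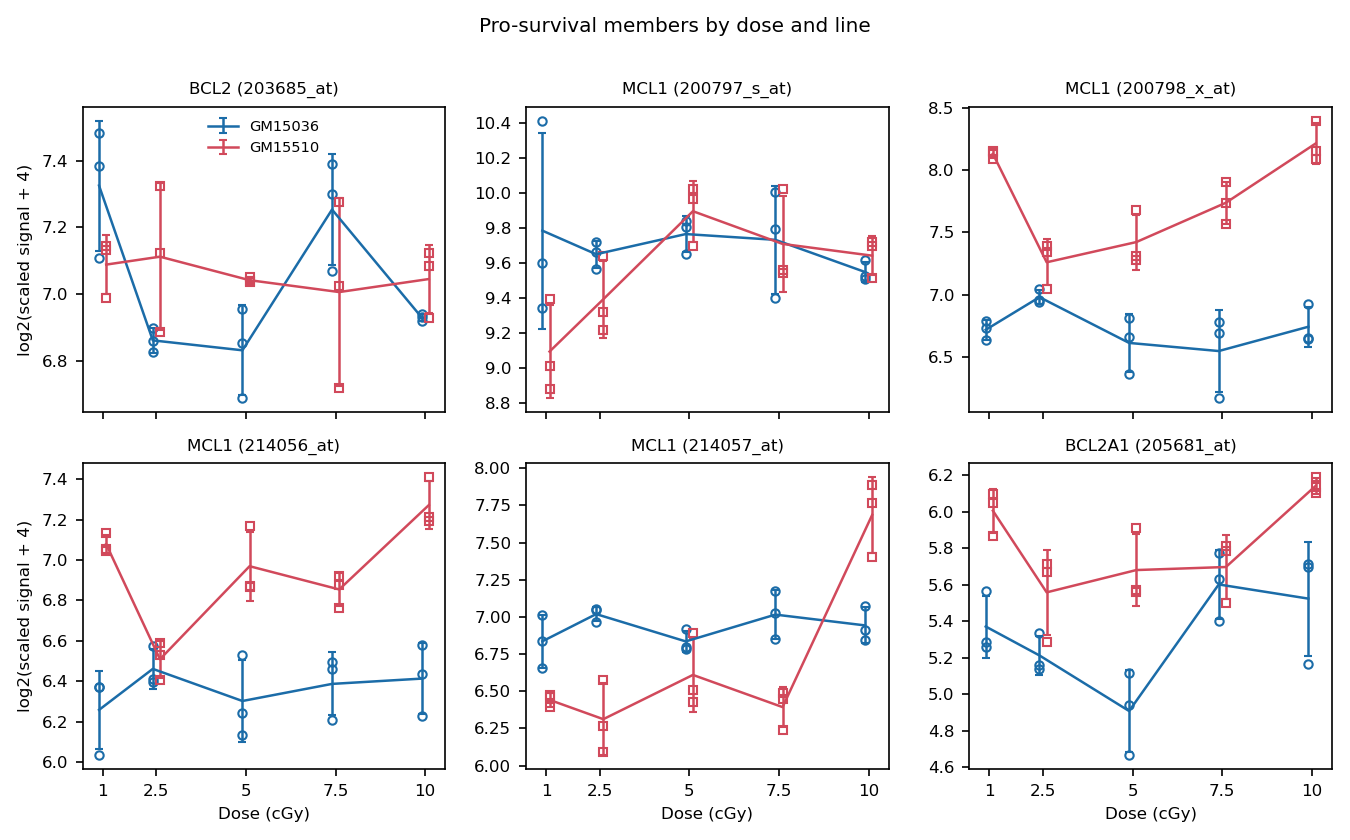
Log2(scaled signal + 4) of pro-survival members (vertical axis) against dose in cGy (horizontal axis), with a point for each array, lines through group means and bars of 1 SD (n = 3), GM15036 as circles and GM15510 as squares. MCL1 214057_at rises at 10 cGy in GM15510, while MCL1 200798_x_at and 214056_at dip at 2.5 cGy in that line.

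BCL2, the founding pro-survival member, was lower at 10 than at 1 cGy in GM15036. Probe set 203685_at read 175, 163 and 134 at 1 cGy, 110, 112 and 115 at 2.5 cGy, 120, 112 and 99.2 at 5 cGy, 130, 164 and 154 at 7.5 cGy, and 119, 118 and 117 at 10 cGy. The arrays at 2.5, 5 and 10 cGy lay below all 3 at 1 cGy, and those at 7.5 cGy overlapped with them. At 10 cGy the difference of -0.39 (SE 0.130) passed with an adjusted p of 0.0433, while the -0.46 at 2.5 cGy (0.107) and the -0.49 at 5 cGy (0.113) did not pass, in comparisons where 0.548% and 0.143% of probe sets did. The 10 cGy call held in 8 of 16 alternatives, not with brightness as a covariate, and was lost in 5 of 30 runs with an array left out, those of GM15036 1 cGy replicates a and b and of all 3 at 10 cGy (adjusted p up to 0.186), whereas the F test over doses (adjusted p = 0.00837) held in all of these.

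In GM15510 BCL2 203685_at ran from 101 to 156 with every dose mean within 0.08 of 1 cGy on the log2 scale, and no dose passed. The dim probe sets 203684_s_at and 207004_at, with scaled signals from 2.15 to 37.7 and from 0.750 to 36.8, passed at no dose, and the 3 tested BCL2 probe sets correlated with each other at -0.232 to -0.125 over the 30 arrays. Probe set 207005_s_at of BCL2 was not tested.

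BCL2L1, or Bcl-xL, rose at 10 cGy in GM15036 by its probe set 212312_at. The arrays read 9.61, 10.9 and 5.53 at 1 cGy, 17.7, 8.60 and 16.4 at 2.5 cGy, 12.1, 11.6 and 3.74 at 5 cGy, 2.61, 24.0 and 12.1 at 7.5 cGy, and 29.8, 30.9 and 25.2 at 10 cGy. All 3 arrays at 10 cGy exceeded the other 12. The rise was 1.38 (SE 0.464, adjusted p = 0.0469) from a 1 cGy mean at the limit for testing (3.64), and it held in 6 of 15 alternatives and in 10 of 30 runs with an array left out, and with brightness as a covariate it was 0.84 (adjusted p = 0.633). BCL2L1 215037_s_at differed by -0.49 at that dose, with no call, and the probe sets correlated at -0.091 over the 30 arrays. Another BCL2L1 probe set, 206665_s_at, was not tested and ran from 0.241 to 6.71. In GM15510 the 5 cGy arrays of 212312_at read 1.78, 3.20 and 3.11, below all those at 1 cGy (10.5, 14.6 and 11.5), with a difference of -1.28 that did not pass (adjusted p = 0.126).

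BCL2A1, the NF-kB-driven pro-survival member of activated B cells, was higher in GM15510. Its probe set 205681_at read 35.1, 34.3 and 43.4 at 1 cGy, 31.8, 36.4 and 31.2 at 2.5 cGy, 21.4, 26.7 and 30.7 at 5 cGy, 38.3, 50.6 and 45.6 at 7.5 cGy, and 31.8, 47.9 and 48.4 at 10 cGy in GM15036. In GM15510 it read 62.2, 54.4 and 64.5 at 1 cGy, 48.5, 35.1 and 46.9 at 2.5 cGy, 43.5, 43.3 and 56.1 at 5 cGy, 51.0, 41.2 and 52.1 at 7.5 cGy, and 68.9, 64.6 and 66.2 at 10 cGy. The lines did not overlap at 3 of 5 doses and overlapped at 2.5 and 7.5 cGy. No dose differed from 1 cGy past the threshold in either line. The F test over doses passed in GM15036 (adjusted p = 0.0391), and it held in 9 of 16 alternatives, not with brightness as a covariate, and in 20 of 30 runs with an array left out.

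The promoter of BCL2A1 is shown beside that of BAX as a member promoter with a TATA match and a low content of G and C. It lies at chr15:79971197-79971446 of GRCh38.p14 on the minus strand, directly 5′ of the start, is printed in the direction of transcription, and capitals mark TATAAA.
BCL2A1: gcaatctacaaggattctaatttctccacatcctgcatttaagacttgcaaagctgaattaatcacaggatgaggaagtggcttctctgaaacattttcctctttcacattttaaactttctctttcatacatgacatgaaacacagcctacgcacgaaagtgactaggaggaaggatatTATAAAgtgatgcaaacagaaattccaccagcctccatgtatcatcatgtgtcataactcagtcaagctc
The single match began 70 bases before the start, the window was 38.8% G and C, and it held no match to CACGTG. The letters TATAAA, searched on both strands, were found in 10.7% of the 35116 promoters, and the BAX window held none. The table had 14 promoters for 8 of the 10 members, with BIK and MCL1 missing, and 1 of the others, of BCL2L1, also held TATAAA.

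Each line was compared on 15 arrays, where a dose had 3, so counts of line and dose calls are not on the same footing. Averaged over doses, 10 of 17 member probe sets differed between GM15510 and GM15036, 4 higher and 6 lower in GM15510, where 47.2% of all tested probe sets differed, 20.5% higher and 26.7% lower. The members' share was therefore near that of the array as a whole. Over the members the median difference was -0.098 and over all tested probe sets -0.067. In bulk samples a lower share of expressing cells and less RNA per cell cannot be told apart.

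BAX was lower in GM15510 with both probe sets, with log2 differences of -1.41 (SE 0.0997, 2.65-fold, adjusted p = 1.09e-13) for 208478_s_at and of -0.92 (SE 0.0747, 1.89-fold, adjusted p = 3.09e-12) for 211833_s_at. The gap narrowed at 10 cGy: for 211833_s_at it was -1.25, -1.16, -0.76, -1.36 and -0.064 in order of rising dose, and the arrays of the lines overlapped at 10 cGy only. BAX 208478_s_at ran in the same order of lines, from -2.28 at 7.5 cGy to -0.45 at 10 cGy, with overlap at 10 cGy only.

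The group mean of BIK was higher in GM15510 at all 5 doses, with overlap of the arrays at 5 cGy only, and the average difference was 1.30 (SE 0.184, 2.47-fold, adjusted p = 3.80e-07). It had a scaled signal of 13.0 to 53.7 against 1.79 to 27.5 in GM15036. MCL1 200798_x_at was higher by 1.03 (SE 0.0644, 2.04-fold, adjusted p = 4.92e-15), and none of its 15 GM15510 arrays, from 128 upwards, was below any of the 15 GM15036 arrays. MCL1 214056_at was higher by 0.57 (adjusted p = 8.05e-10), whereas MCL1 214057_at had a difference of -0.24 (adjusted p = 0.002), so the probe sets of that gene did not share a direction.

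BCL2A1 was higher in GM15510 by 0.49 (SE 0.0827, 1.41-fold, adjusted p = 7.29e-06). Lower in GM15510 were BID 211725_s_at at -0.38 (adjusted p = 5.54e-04), BCL2 207004_at at -0.51 (0.0194) and BCL2L1 215037_s_at at -0.51 (0.0429). The last had a log2 mean of 3.41 in GM15510, under the limit of 3.64, and of 3.92 in GM15036, so it was tested only through the line where it was higher, and its difference is no support for a change. The other 7 probe sets, among them BAK1, BID 204493_at, BCL2L11 and BCL2 203685_at, did not pass. The differences of both BAX probe sets, BIK, MCL1 200798_x_at and 214056_at, and BCL2A1 passed in every alternative run, whereas MCL1 214057_at was lost under both forms of median centring. BID 211725_s_at was lost under median centring and with the GAPDH ratio as a covariate, BCL2 207004_at held in 10 of 14 alternatives, and BCL2L1 215037_s_at held in 6 of 14 alternatives and 13 of 30 runs with an array left out.

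**Figure D3:**
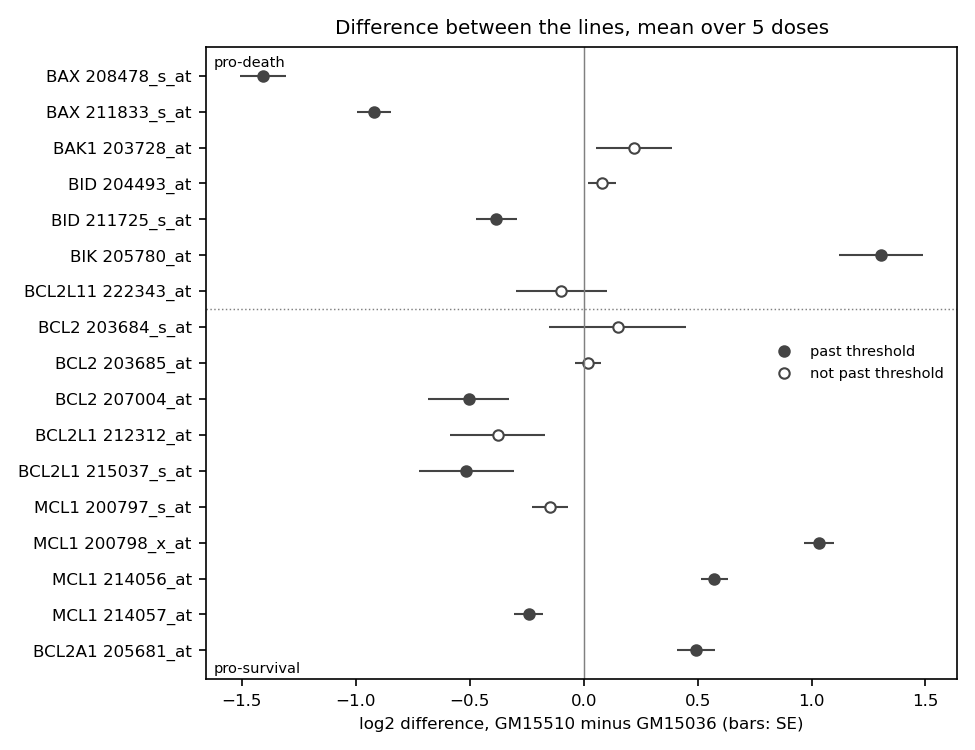
Difference between the lines, GM15510 minus GM15036, averaged over doses on the log2 scale (horizontal axis), for the 17 tested member probe sets (vertical axis), with bars of 1 SE and filled points past the threshold. Both BAX probe sets lie to the left, at -1.41 and -0.92, and BIK and MCL1 200798_x_at lie to the right, at 1.30 and 1.03.

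Whether dose acted alike in both lines was tested with the line by dose interaction. It passed for 7 of 17 member probe sets, against 20.5% of all tested probe sets: both of BAX, BID 204493_at, BIK, and MCL1 200798_x_at, 214056_at and 214057_at. The 10 minus 1 cGy difference of BAX 211833_s_at was 0.05 in GM15036 and 1.24 in GM15510, and that of MCL1 214057_at 0.11 and 1.24. For BIK it was -1.55 and 0.23. With brightness as a covariate the interaction was lost for BID 204493_at, BIK and MCL1 200798_x_at. That of BID was also lost without GM15036 7.5 cGy replicate b or c or GM15510 7.5 cGy replicate 1 or 3 (adjusted p up to 0.103), and that of BIK held in 22 of 30 runs with an array left out. The slope on dose passed for 2 of 17 members in GM15036 (13.0% of all), BID upwards (5.23%) and BIK downwards (7.77%), and for 4 of 17 in GM15510 (4.62%), all upwards (2.72%), those of BAX and of MCL1 200797_s_at and 214057_at. The slopes themselves differed between the lines for 3 of 17, all steeper in GM15510, against 10.8% of all and 6.56% in that direction. They were BAX 211833_s_at and MCL1 200797_s_at and 214057_at, and none held without the 10 cGy arrays. With brightness as a covariate the difference of BAX was lost and turned to -0.013, that of MCL1 200797_s_at was lost, and that of MCL1 214057_at held. MCL1 200797_s_at held in 9 of 17 alternatives and in 15 of 30 runs with an array left out.

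**Figure D4:**
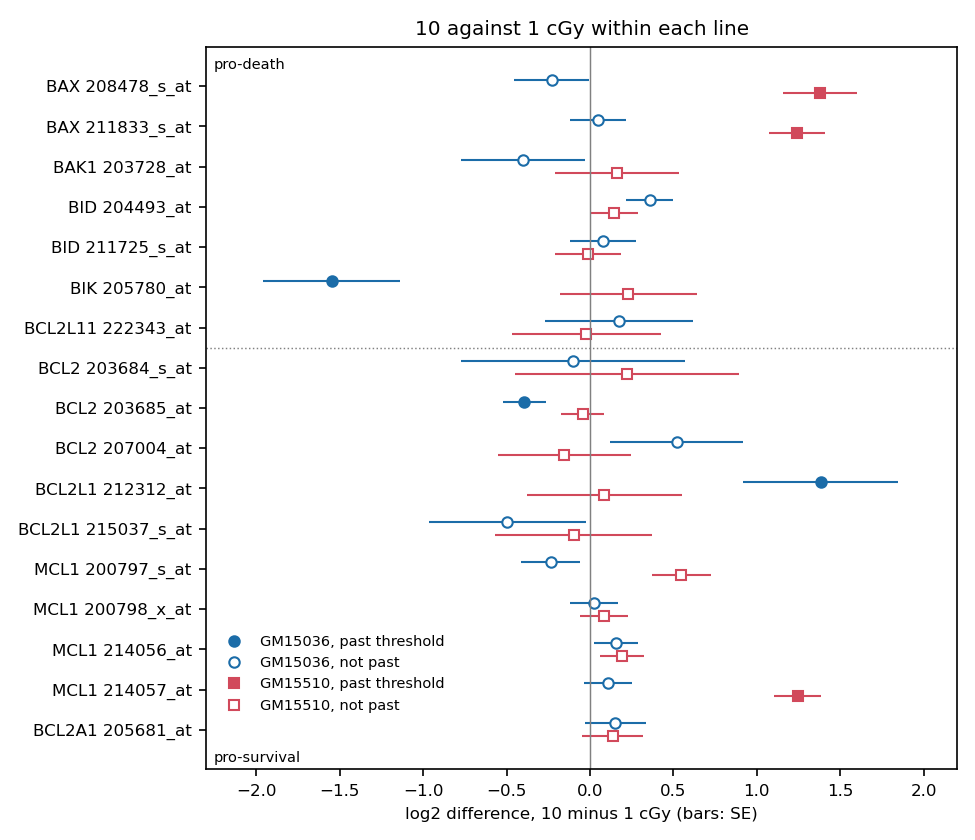
Log2 difference of 10 minus 1 cGy (horizontal axis) for the 17 tested member probe sets (vertical axis), GM15036 as circles and GM15510 as squares, with bars of 1 SE and filled symbols past the threshold. In GM15510 the filled symbols are both BAX probe sets and MCL1 214057_at, at 1.24 to 1.38, and in GM15036 they are BIK at -1.55, BCL2 203685_at at -0.39 and BCL2L1 212312_at at 1.38.

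The balance of pro-death against pro-survival members was described per array as the mean log2 value of the 6 pro-death genes minus that of the 4 pro-survival genes, each with its brightest probe set (for BAD one too dim to be tested), and it was not tested. Only its change between arrays can be read. In GM15036 it was -1.47 ± 0.110, -1.35 ± 0.025, -1.36 ± 0.516, -1.46 ± 0.403 and -2.10 ± 0.324 (SD, n = 3) in order of rising dose. The drop at 10 cGy was not shared by the members: of the change of -0.63 from 1 cGy, BIK and BCL2L1 212312_at, both dim, made up -0.60, and the other 8 genes together -0.022. Among these, BAD gave -0.17. The 10 cGy group was also the dimmest of GM15036, at 22.1. The change was -0.29 under median centring and -0.26 with a pseudocount of 16. Leaving out the 5 dimmest arrays kept only replicate c at 10 cGy in GM15036, and the -1.0001 found there rests on that array.

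In GM15510 the balance was -1.52 ± 0.055, -1.52 ± 0.178, -1.58 ± 0.222, -1.56 ± 0.133 and -1.48 ± 0.177 in the same order. The highest and lowest of these means differed by less than the pooled SD of 0.261 within groups. The mean of the pro-death members was 5.03 at 1 cGy and 5.25 at 10 cGy, and that of the pro-survival members 6.55 and 6.73, so both were higher at 10 cGy.

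Within an array, the log2 value of BAX (211833_s_at) minus that of BCL2 (203685_at) went in GM15510 from -1.62 ± 0.141 at 1 cGy to -0.34 ± 0.041 at 10 cGy, with -1.41, -1.11 and -1.28 at the doses between. All 3 arrays at 10 cGy were higher than every other array of the line. In GM15036 it went from -0.61 ± 0.178 to -0.16 ± 0.429. BAX minus MCL1 (200797_s_at) in GM15510 was -3.63, -3.69, -3.96, -3.99 and -2.94 in order of rising dose. Against MCL1 214057_at, which rose as much as BAX, the difference was -0.98 at both 1 and 10 cGy and -0.61, -0.68 and -0.67 between. BID (204493_at) minus BCL2 in GM15036 was -0.65 ± 0.155 at 1 cGy and 0.01 to 0.15 at the higher doses. BIK minus BCL2 in GM15036 was -2.83 ± 0.058 at 1 cGy and -3.98 ± 0.641 at 10 cGy.

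**Figure D5:**
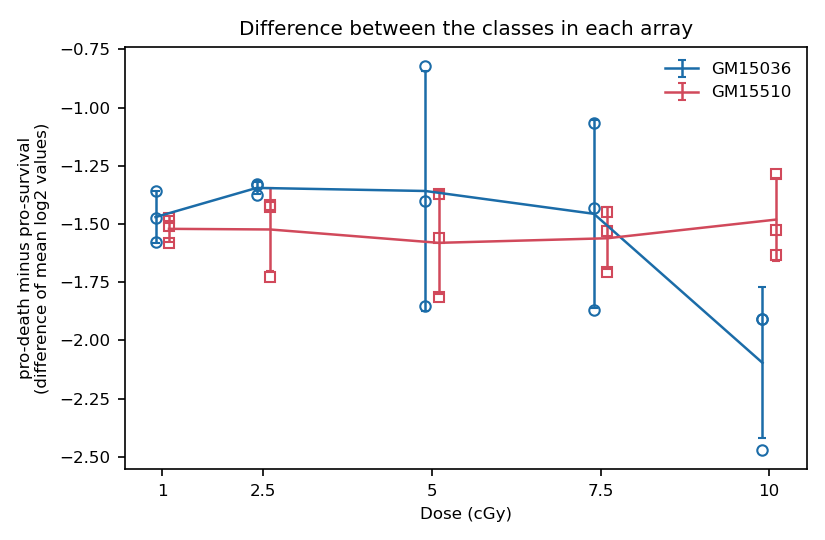
Mean log2 value of pro-death minus pro-survival members per array (vertical axis) against dose in cGy (horizontal axis), with lines through group means and bars of 1 SD (n = 3), GM15036 as circles and GM15510 as squares. The GM15036 mean drops to -2.10 at 10 cGy, and the GM15510 means lie between -1.58 and -1.48.

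Probe sets whose 10 group means ran most like those of a member were named as a description, with n = 10 means that share arrays, lines and scaling. For MCL1 214057_at these were TXN at a Pearson correlation of 0.949, RPL14 at 0.947 and ZNF146 at 0.939. For BID 204493_at they were GFER at 0.878, OAZ1 at 0.875 and PRMT2 at 0.870. For BCL2A1 they were MRPL18 at 0.940, IPCEF1 at 0.930 and EIF4B at 0.923.

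Genes that act around the family were read from a list of 53, of which 43 genes with 69 probe sets were tested. At 10 cGy in GM15036, 4 of the 69 passed upwards and 11 downwards, against 4.39% and 7.35% of all tested probe sets. YWHAZ, the 14-3-3 protein that binds phosphorylated BAD, was lower there by its probe set 200639_s_at, which fell by 0.94 (SE 0.143, adjusted p = 3.04e-05), and 1 of its 4 other tested probe sets also passed in that direction. MTCH2, the mitochondrial receptor for truncated BID, fell by 0.64 (adjusted p = 1.66e-04). VDAC3, a channel of the outer mitochondrial membrane, fell by 0.74 (0.00242), and STAT3, a transcription factor that drives MCL1 in many cells, fell by 0.62 (0.00191), in both cases with no other probe set of the gene called in that direction. Mean brightness was lowest in that group of the line, and its part in these falls was not tested.

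In GM15510 at 10 cGy 2 of the 69 passed upwards and 1 downwards, against 3.09% and 2.82%. STAT3 208991_at was 0.60 higher (SE 0.135, adjusted p = 0.00474), with no such call for its other probe set, opposite in sign to GM15036, and its slopes on dose differed between the lines by 0.149 log2 per cGy (adjusted p = 2.52e-06). AIFM1, the flavoprotein released from mitochondria in dying cells, was 0.44 higher (0.0414), and VDAC2, which holds BAK1 at the membrane, fell by 0.35 (0.00794). The mean log2 ratio of 3′ to 5′ signal of ACTB was 5.16 in GM15510 at 10 cGy against 3.75 at 1 cGy. Its part in these neighbour calls was not tested. With this ratio as a covariate, calls over all tested probe sets went from 412 higher and 376 lower to 211 and 193.

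At 2.5 cGy in GM15510, 2 passed upwards and 2 downwards (3.92% and 5.57% of all). Mean brightness was 18.7 in that group against 69.4 at 1 cGy, and its part in these neighbour calls was not tested. With brightness as a covariate, calls over all tested probe sets went from 523 higher and 742 lower to 55 and 60. PMAIP1 204286_s_at, which reports NOXA, the BH3-only partner of MCL1 and a p53 target, fell by 0.80 (adjusted p = 0.00267), with no such call for the gene's remaining probe set. TRIAP1, a p53-inducible inhibitor of apoptosis, was 0.62 higher (0.00162). HUWE1 207783_x_at, of the ubiquitin ligase that marks MCL1 for destruction, was 0.56 higher (0.0142), again with no such call for its other probe set. As an _x_at probe set, 207783_x_at can bind other transcripts. YWHAZ 200638_s_at fell by 0.39 (0.00303), with no such call for its 4 other tested probe sets.

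At 5 cGy 1 passed upwards and 3 downwards in GM15510 (2.08% and 2.12%). AIFM1 fell by 0.57 (0.00852), BAG1, a BCL2-binding cochaperone, by 0.57 (0.0244) and YWHAZ 200638_s_at by 0.31 (0.0318). HUWE1 207783_x_at was 0.52 higher (0.0361). No other tested probe set of BAG1, YWHAZ or HUWE1 was called in the same direction. Mean brightness was 39.0 there against 69.4 at 1 cGy, and its part in these neighbour calls was not tested. With brightness as a covariate, calls over all tested probe sets went from 277 higher and 282 lower to 127 and 95. At 7.5 cGy in GM15510, 0 passed upwards and 4 downwards (1.04% and 0.743%). YWHAZ 200640_at fell by 0.74 (0.00492), with no such call for its 4 other tested probe sets. PMAIP1 204285_s_at fell by 0.57 (0.0258), BECN1, the autophagy protein bound by BCL2, by 0.44 (0.0305), and BNIP3L by 0.58 (0.0313). The other tested probe set of each of PMAIP1, BECN1 and BNIP3L had no such call. In GM15036 no neighbour passed at 2.5 or 5 cGy by limma. At an unadjusted limma p under 0.05 were 3 and 6 of 69, against 9.47% and 7.97% of all tested probe sets. At 7.5 cGy in that line 2 passed upwards and 2 downwards (1.27% and 1.95%). BIRC5, the inhibitor of apoptosis survivin, was 0.70 higher by 202095_s_at (SE 0.132, adjusted p = 0.00148), with no such call for its other 2 probe sets. TRIAP1 was 0.45 higher (0.0471), and YWHAZ 200639_s_at and VDAC3 208846_s_at fell by 0.53 (0.0324) and 0.59 (0.0428). No other YWHAZ or VDAC3 probe set was called in that direction. Mean brightness was 32.4 there against 69.6 at 1 cGy, and its part in these neighbour calls was not tested.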

How the data were processed

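Messenger RNA of 2 lymphoblastoid lines at 5 doses was measured on 30 arrays, 3 a group. The deposited values are signal intensities on a linear scale. MAS5 is the tool named in the submitters' processing notes, and its version and scaling are not given in the sources used here. Trimmed means of the arrays (2 to 98%) differed 7.91-fold, so each array was scaled to a common 50.9 before log2(value + 4). Probe sets with a mean log2 value above the 40th percentile, without control probe sets, were tested: 13331 of 22283. Symbols came from the platform annotation, updated by gene ID through RefSeq (GRCh38.p14): 19071 probe sets had 1 symbol, 1043 several and 2169 none, and 19059 matched RefSeq.

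limma 3.58.1 in R 4.3.3 was fitted to the 10 group means of all arrays (20 residual and 12.3 prior degrees of freedom), eBayes with an intensity trend, two-sided, Benjamini-Hochberg adjusted over all tested probe sets. Contrasts were each dose against 1 cGy, slopes, F tests over doses, their interaction with line, and the line difference. The code was tested on simulated data. The members, the list of neighbours and the naming rule (all 10 members with every probe set, up to 4 called neighbours with the smallest adjusted p per comparison, and the 3 most similar probe sets) were chosen with earlier results of these data known. Alternatives were quantile normalization, median centring with and without scaling, pseudocounts of 1 and 16, no filter and the 60th percentile, other eBayes forms, array weights, each line alone, a replicate block, brightness and 3′ to 5′ ratios of GAPDH and ACTB as covariates, and leaving out arrays. Correlations of log2 values between arrays of a group ran from 0.901 to 0.972 and no arrays were identical. Precision is limited by 3 arrays a group. Leaving out the 5 dimmest arrays, counted among the alternatives, left only GM15036 10 cGy replicate c and GM15510 2.5 cGy replicate 1 in their groups. Promoter sequences are RefSeq's.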

Additional observations from a re-analysis of the deposited data

Results flagged for a closer look

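The response to dose differed between the lines by the interaction test for 7 member probe sets, each with a limma adjusted p over all tested probe sets: BAX 208478_s_at (1.61e-04) and 211833_s_at (4.28e-04), BID 204493_at (0.0220), BIK 205780_at (0.0369), and MCL1 200798_x_at (1.48e-04), 214056_at (0.00712) and 214057_at (1.16e-05). The slope on dose was steeper in GM15510 than in GM15036 by 0.0962 log2 per cGy for BAX 211833_s_at, 0.0744 for MCL1 200797_s_at and 0.108 for MCL1 214057_at. With brightness as a covariate that of BAX 211833_s_at was lost and turned to -0.013, that of MCL1 200797_s_at was lost and that of MCL1 214057_at held, and MCL1 200797_s_at held in 9 of 17 alternatives and in 15 of 30 runs with an array left out. Over the alternatives run, the interaction of both BAX probe sets and of MCL1 214057_at passed in 15 of 15, BID 204493_at in 13 of 15, BIK in 8 of 14, and MCL1 200798_x_at and 214056_at in 14 of 15 each. Single arrays within groups of 3 were not tested for standing apart.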

How the results depend on the processing

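Counts of member calls changed by over 1.5 times in the following cases. The 5 calls of any dose difference in GM15036 became 3 with no filter, with each line fitted alone and with the GAPDH ratio as a covariate, and 2 to 5 with an array left out, the 2 being without GM15036 7.5 cGy replicate c. Under median centring the 6 calls in GM15510 became 11, the 12 calls against 1 cGy became 21 and the 6 slopes became 13. With brightness as a covariate the slopes became 3 and the 7 interaction calls 4, and without the 10 cGy arrays the slopes became 2. The 10 line differences stayed between 9 and 11 with an array left out. The balance change of GM15036 at 10 cGy, -0.63, was -0.29 under median centring and -0.26 with a pseudocount of 16. Without the 5 dimmest arrays it was -1.0001, with only replicate c left at 10 cGy. The cause of these shifts was not tested.

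Median centring moved the median of all tested probe sets to -0.38 in GM15036 at 10 cGy and to -0.50 and -0.29 in GM15510 at 2.5 and 5 cGy, and turned the split of higher and lower calls from 585 and 980 to 77 and 4251, from 523 and 742 to 83 and 5618, and from 277 and 282 to 46 and 1921. In that setting MCL1 200798_x_at (-0.55) and 214057_at (-0.47) reversed in GM15036 at 10 cGy, as did BID 204493_at (-0.50) and BCL2 203685_at (-0.68) in GM15510 at 2.5 cGy and the GM15036 slopes of BID 204493_at (-0.0032), MCL1 214056_at (-0.042) and MCL1 214057_at (-0.047). The slope difference of BAX 211833_s_at reversed with brightness as a covariate (-0.013), and without the 10 cGy arrays it (-0.00042) and that of MCL1 214057_at (-0.0066) reversed.

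Arrays of the same replicate label did not deviate together, with correlations from -0.062 to 0.097 over 60 pairs. Pairs of other labels within a line ran from -0.082 to 0.069 over 120 pairs. GM15510 5 cGy replicate 2b was counted as replicate 2, and 12 of 30 arrays were closest to one of their own label. This check cannot show whether arrays of a label were handled together, and the main fit did not pair them. With the replicate block the counts were 5, 7, 12, 6, 8 and 10 for doses in GM15036, doses in GM15510, comparisons with 1 cGy, slopes, interaction and lines. Dim signal limits BAD, BCL2L11, BCL2L1 and BIK.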
